A study of Mus musculus with 9 samples.

Results

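Daily amylin against daily vehicle within 5xFAD mice was the comparison examined here, over 6 of the 9 arrays of the series. The members were chosen by the titles of the samples: 3 arrays of 5x FAD mice that received the human peptide amylin and 3 arrays of 5x FAD mice that received phosphate-buffered saline (PBS, the vehicle). Treatment was by intraperitoneal injection every day for 10 weeks, and the mice were about 5 months old. The remaining 3 arrays, B6SJLF1/J wild-type mice injected daily with PBS for the same 10 weeks, served as a reference level, so every group was injected. Total RNA came from brain tissue, which the series names as cortex. The amylin dose, the sex of the mice and the zygosity of the transgenes are not given in the sources used here. Samples of a group are labelled biological replicates, so p-values measure the spread between 3 such samples per group.

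Amylin is a hormone that pancreatic beta cells release together with insulin, and it acts through receptors made of the calcitonin receptor and a receptor activity-modifying protein (RAMP), abundant in the hindbrain and hypothalamus. The 5xFAD line carries mutant human transgenes driven by the neuronal Thy1 promoter and deposits amyloid plaques, around which microglia gather and turn on a set of lysosomal, lipid-handling and chemokine genes. Glucocorticoids, the adrenal stress hormones, enter the brain and act through the nuclear receptor encoded by Nr3c1, whose target genes include feedback regulators such as Fkbp5. In bulk tissue, fewer cells of a type and less RNA per cell cannot be told apart.

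Values are log2 intensities made by robust multi-array averaging (RMA), in which a step of 1 is a doubling of intensity, and a difference is always amylin minus PBS. Array medians ran from 5.71 to 5.79. The 3 measured Y-linked genes were near the bottom of the scale on all 9 arrays (2.49 to 3.33) and Xist was high on all (9.85 to 10.41), so no array stood apart in this respect. The cortical markers Tbr1 and Cux2 lay at 9.21 to 9.47 and 7.54 to 7.73 on the 6 5xFAD arrays. Markers of other brain regions were also present, and some differed between arrays. The 13 striatal markers averaged far above wild type on all 6 5xFAD arrays, with a median difference from wild type of 1.47 in vehicle mice and 1.48 in amylin mice, while 15 thalamic markers stood at -0.96 and -0.93. The 14 hippocampal markers stood at -0.78 and -0.66. Both 5xFAD groups thus shared a shift of these markers from wild type. A difference of genotype and a difference in the tissue taken cannot be told apart in it. Its part in any other difference from wild type was not tested. Between the 5xFAD groups the median differences of the striatal and thalamic lists were -0.10 and -0.0024, the latter moving to -0.25 without amylin replicate 2. That of the hippocampal list was 0.04, with all amylin arrays above all vehicle arrays for 2 genes (5.49% of all genes) and below for 0 (3.81%).

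Across 19938 genes, 1 gene changed under amylin, which is 0.00502% of those tested (limma, Benjamini-Hochberg adjusted p under 0.05). Means were higher for 10040 genes and lower for 9895, and the median difference over all genes was 0.00064. At an unadjusted p under 0.05 there were 741 genes with a higher mean (3.72%) and 634 with a lower one (3.18%). All amylin arrays lay above all vehicle arrays for 1095 genes (5.49%) and below them for 759 (3.81%). With wild type as the reference, 8.58% of genes passed in vehicle mice and 5.21% in amylin mice.

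The arrays limited the size of difference that could be seen. Differences had a standard error (SE) of 0.07 log2 at the median, and the 95% interval lay within 0.5 log2 of 0 for 19160 genes (96.1%) and within 1 log2 for 19856 (99.6%). Differences over 1.5-fold were found for 51 genes, 27 higher and 24 lower, and differences over 1 log2 for 7. After Fkbp5, the smallest adjusted p was 0.18. For a single value, an exact permutation of 3 against 3 arrays could not have gone below a two-sided p of 0.1. A further 13767 probe sets that name no gene or several were tested apart, and none passed with limma, with 924 at an unadjusted p under 0.05 and a smallest adjusted p of 0.354.

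**Figure D1:**
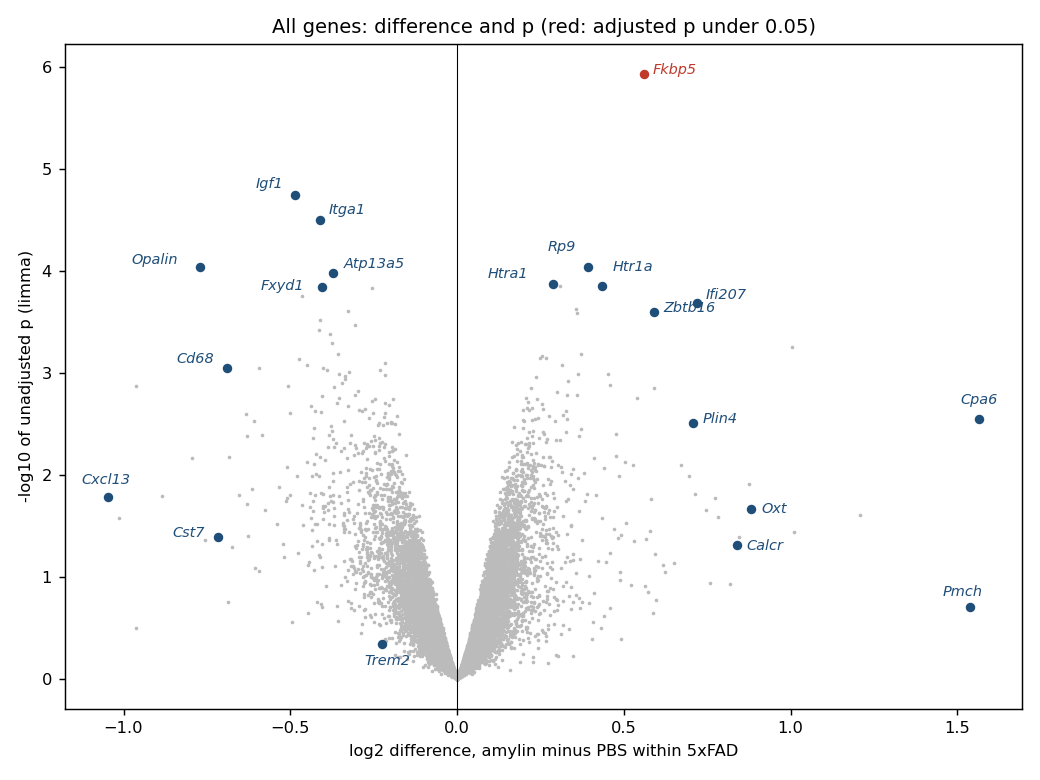
Each grey point is 1 of 19938 genes, with the log2 difference between amylin and PBS within 5xFAD on the horizontal axis and -log10 of the unadjusted limma p on the vertical axis; named genes are in blue. Fkbp5, in red at 0.56, is the 1 gene with an adjusted p under 0.05, while larger differences such as those of Cpa6 (1.56) and Pmch (1.54) have larger p.

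Fkbp5, which encodes an immunophilin co-chaperone that dampens the glucocorticoid receptor and is itself induced by it, rose under amylin. It read 7.76, 7.80 and 7.70 on the vehicle arrays (replicates 1, 2 and 3) and 8.30, 8.35 and 8.29 on the amylin arrays. The groups did not overlap, and the amylin arrays lay within the wild-type range of 8.26 to 8.39. Means were 8.31 ± 0.03 (SD, n = 3) and 7.75 ± 0.05 (SD, n = 3), a 1.47-fold difference of 0.56 ± 0.05 log2 (SE; 95% interval 0.44 to 0.68; limma adjusted p = 0.0233). Against wild type, the vehicle group stood at -0.57 (limma adjusted p = 0.000328) and the amylin group at -0.01 (limma adjusted p = 0.959). The difference stayed between 0.53 and 0.59 under every alternative run, but the call did not: the limma adjusted p was 0.288 with only the 6 5xFAD arrays and 0.137 with all probe sets tested, and it missed the threshold without any 1 of 7 arrays (0.0577 to 0.226), the exceptions being vehicle replicates 1 and 2 (0.0421 and 0.0395).

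Zbtb16, a zinc finger transcription factor strongly induced by glucocorticoids in many tissues, had the same order of groups. The vehicle arrays read 8.42, 8.87 and 8.59, the amylin arrays 9.20, 9.33 and 9.12, and the wild-type arrays 9.64, 9.69 and 9.59. None of the 3 groups overlapped, and amylin mice lay between the other groups. The difference was 0.59 ± 0.10 log2 (SE; limma adjusted p = 0.306). Amylin mice were still below wild type, by -0.43 (limma adjusted p = 0.0489), where vehicle mice stood at -1.02 (limma adjusted p = 0.000635).

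Mertk, a receptor kinase through which phagocytes take up dying cells, read 8.15, 8.46 and 8.46 with vehicle and 8.73, 8.72 and 8.62 with amylin. Vehicle replicate 1 was low, the groups were separate, and the amylin arrays were above the wild-type range of 8.36 to 8.41. Sult1a1, a sulfotransferase for phenolic compounds, read 6.03, 6.57 and 6.40 against 6.80, 6.81 and 6.61, again without overlap. Plin4, a coat protein of lipid droplets, read 5.89, 6.40 and 5.90 against 7.02, 6.95 and 6.35, and there amylin replicate 3 lay within the vehicle range. The differences were 0.33 ± 0.08, 0.41 ± 0.12 and 0.71 ± 0.18 log2 (SE), with limma adjusted p of 0.574, 0.661 and 0.574.

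For a further pair of listed genes, Tsc22d3 and Sgk1, the groups overlapped. Tsc22d3, the anti-inflammatory mediator also called GILZ, read 6.59, 7.09 and 6.69 with vehicle and 6.99, 7.22 and 7.01 with amylin, so vehicle replicate 2 sat among the amylin arrays. Sgk1, a kinase that controls ion transport, read 8.31, 8.99 and 8.15 against 8.76, 8.62 and 8.43, and its highest value was a vehicle one. Their differences were 0.28 ± 0.12 and 0.12 ± 0.18 log2 (SE; limma adjusted p = 0.712 and 0.914), and the second turned to -0.05 without vehicle replicate 3. Both genes were named after their values were seen. For the receptor itself the groups overlapped, with Nr3c1 at 8.75, 8.83 and 8.87 against 8.76, 8.79 and 8.82, a difference of -0.02 with a 95% interval of -0.14 to 0.10.

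Of 24 measured glucocorticoid-responsive genes, 1 passed, 18 had a higher and 6 a lower mean, and 5 had all amylin arrays above all vehicle arrays, against 5.49% of all genes. The median difference of the list was 0.07, against 0.00064 over all genes. Its members named above all had a higher mean. The lowest member was Dusp1, with 8.77, 8.99 and 9.01 on the vehicle arrays and 9.01, 8.59 and 8.37 on the amylin arrays. Its difference was -0.27 ± 0.14 log2 (SE, limma adjusted p = 0.765). Relative to the wild-type mean, the list averaged -0.43, -0.16 and -0.40 on the vehicle arrays and -0.13, -0.16 and -0.29 on the amylin arrays. Vehicle replicate 2 was therefore as high as the amylin arrays, and without it the median difference of the list was 0.21; without vehicle replicate 3 it was 0.02. In vehicle mice 8 of these genes were below wild type at an adjusted p under 0.05, and in amylin mice 6 were. The shares of all genes that passed in either direction were 8.58% and 5.21%. Members were chosen for known glucocorticoid responses, and earlier results from these data were known when they were listed.

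**Figure D2:**
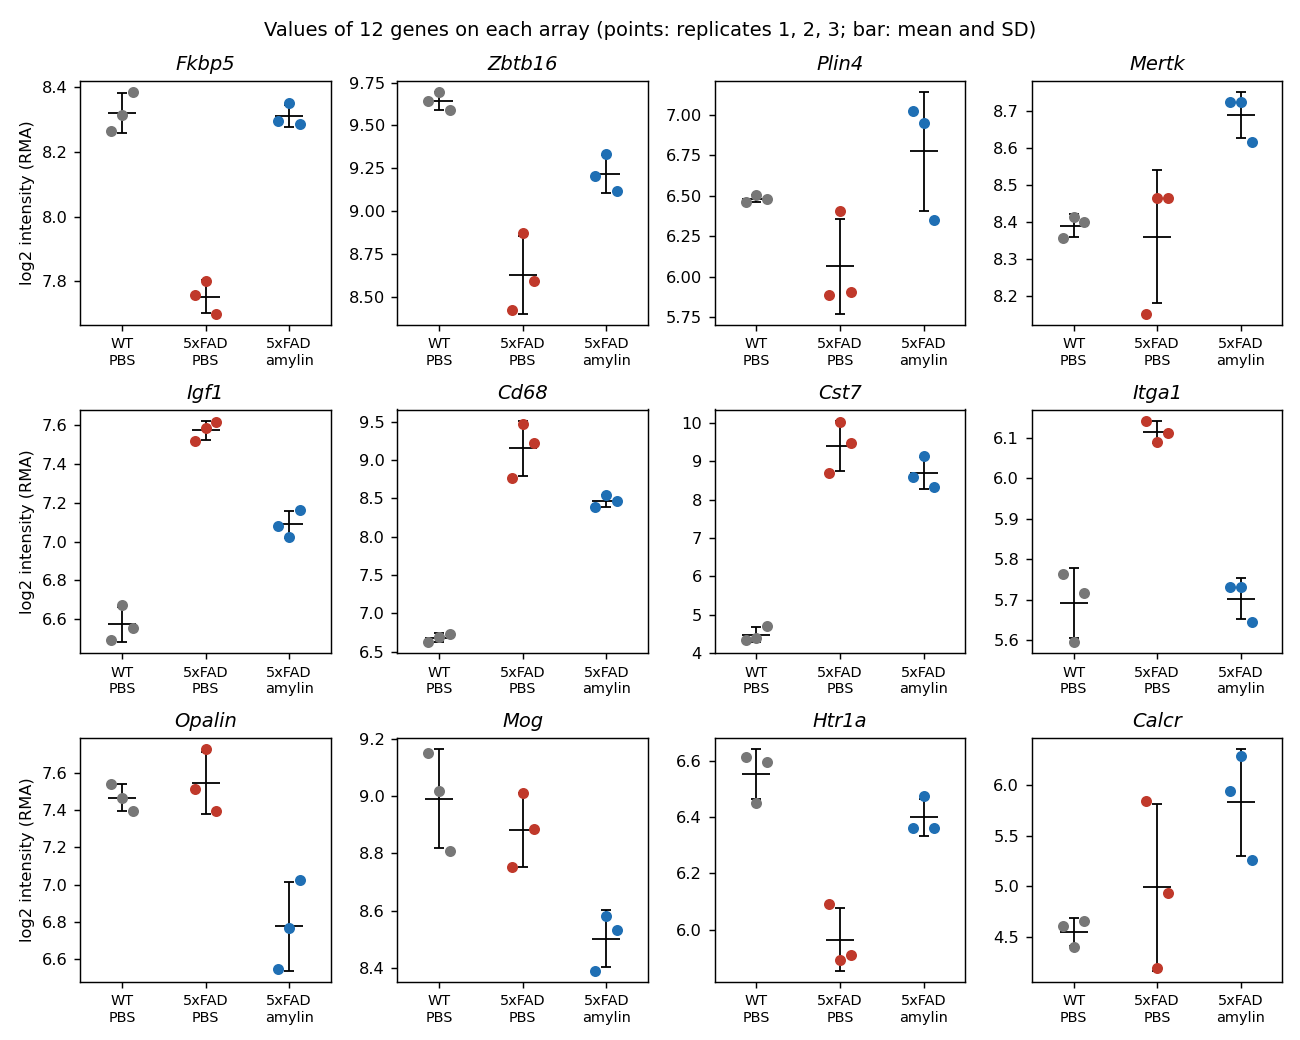
The log2 intensity of 12 genes is plotted for each array, grouped as wild type with PBS, 5xFAD with PBS and 5xFAD with amylin, with a bar for the mean and the SD of 3 arrays; the vertical axes do not start at 0. Fkbp5 on the amylin arrays (8.29 to 8.35) is level with wild type, Zbtb16 and Igf1 lie between both other groups, and Opalin and Mog lie below both.

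To show what lies at the start of these genes, promoter windows of 300 bases (250 before to 50 after the annotated start) were read from RefSeq, build GRCm38.p6, for Fkbp5, which changed, for Sult1a1, whose window holds glucocorticoid receptor half-sites, and for Sgk1, of which the 1 window with a full palindrome is shown. Capitals mark the half-site AGAACA or its reverse complement TGTTCT, searched on both strands; the palindrome is AGAACA and TGTTCT with 3 bases between them, so a palindrome also counts as 2 half-sites. The windows are given 5′ to 3′ on the strand of the gene, at chr17:28486100-28486399 (minus strand) for Fkbp5, chr7:126676369-126676668 (minus strand) for Sult1a1 and chr10:21993640-21993939 (plus strand) for Sgk1.
Fkbp5: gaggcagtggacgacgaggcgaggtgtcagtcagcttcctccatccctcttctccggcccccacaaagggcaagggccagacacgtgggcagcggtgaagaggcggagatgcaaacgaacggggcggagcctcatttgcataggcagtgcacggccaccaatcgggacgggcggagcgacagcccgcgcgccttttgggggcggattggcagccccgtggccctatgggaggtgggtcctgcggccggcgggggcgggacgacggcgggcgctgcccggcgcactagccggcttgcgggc
Sult1a1: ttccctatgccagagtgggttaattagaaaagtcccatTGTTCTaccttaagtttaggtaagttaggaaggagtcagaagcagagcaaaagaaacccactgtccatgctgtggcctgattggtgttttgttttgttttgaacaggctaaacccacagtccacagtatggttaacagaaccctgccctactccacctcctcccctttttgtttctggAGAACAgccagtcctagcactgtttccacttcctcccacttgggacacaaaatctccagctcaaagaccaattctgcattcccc
Sgk1: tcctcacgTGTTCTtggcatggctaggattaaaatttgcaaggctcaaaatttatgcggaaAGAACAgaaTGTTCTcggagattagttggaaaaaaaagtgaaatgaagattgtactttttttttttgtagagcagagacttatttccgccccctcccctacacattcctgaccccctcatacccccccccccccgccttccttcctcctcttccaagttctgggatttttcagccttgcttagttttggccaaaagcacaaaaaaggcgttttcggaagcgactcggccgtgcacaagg
The Fkbp5 window holds 0 half-sites, the Sult1a1 window 2 and the printed Sgk1 window 3; the other Sgk1 windows of the table hold 0 or 1. Of 32851 windows in the table, 18.97% hold at least 1 half-site and 3 (0.00913%) hold the palindrome. Of the listed glucocorticoid-responsive genes, 21 matched 30 windows, of which 5 windows of 3 genes (Sult1a1, Sgk1 and Tsc22d3) hold a half-site. A match describes letters, not a bound site, and the absence of one says only that these letters are not in the window. Among the 3 genes with a half-site, the differences were 0.41, 0.12 and 0.28; the windows of Plin4 and Mertk hold 0.

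Microglial genes had lower means under amylin, and none passed. Igf1, a growth factor secreted by activated microglia, came nearest. It read 7.52, 7.59 and 7.62 with vehicle against 7.08, 7.03 and 7.16 with amylin and 6.49, 6.67 and 6.55 in wild type. The 3 groups were separate, with amylin mice between the others, and the difference was -0.49 ± 0.06 log2 (SE; 95% interval -0.62 to -0.35; limma adjusted p = 0.18). Against wild type, Igf1 passed in both vehicle mice (1.00, limma adjusted p = 4.24e-05) and amylin mice (0.52, limma adjusted p = 0.00194).

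Cd68, a glycoprotein of phagocyte lysosomes, read 8.76, 9.47 and 9.22 with vehicle and 8.38, 8.55 and 8.46 with amylin, where wild-type arrays read 6.62 to 6.73. The amylin arrays were close together and below every vehicle array, of which replicate 1 was lowest. Its difference of -0.69 ± 0.15 log2 (SE) did not pass (limma adjusted p = 0.495), but it did without vehicle replicate 1 (-0.89, limma adjusted p = 0.0247). Cst7, an inhibitor of lysosomal cysteine proteases, read 8.71, 10.03 and 9.48 against 8.58, 9.15 and 8.34, with 4.34 to 4.71 in wild type. There the groups overlapped, and 2 of 3 amylin arrays lay below the lowest vehicle array. Trem2, the lipid-sensing receptor of microglia, read 7.50, 8.63 and 7.93 against 7.42, 8.37 and 7.60, and its replicate 2 was the highest array in both groups. Its difference of -0.22 had a 95% interval of -0.87 to 0.42 and turned to 0.08 without vehicle replicate 2.

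Other genes of the plaque-associated state included Lpl, Lgals3 and Apoe. Lpl, the lipase that releases fatty acids from lipoproteins, read 7.58, 7.86 and 7.95 with vehicle and 7.36, 7.52 and 7.20 with amylin, next to a wild-type range of 7.38 to 7.49. Lgals3, the galectin that binds damaged lysosomes, read 6.56, 6.45 and 6.36 against 5.98, 6.19 and 6.18, with wild type at 5.97 to 6.06. In both genes the groups were separate, and the differences were -0.44 ± 0.11 and -0.34 ± 0.07 log2 (SE; limma adjusted p = 0.569 and 0.495). Apoe, the main lipid carrier between brain cells, read 12.29, 12.34 and 12.44 against 12.31, 12.36 and 12.33, and its 95% interval of -0.15 to 0.09 was among the narrower ones.

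Over 33 measured genes of disease-associated microglia, 29 had a lower and 4 a higher mean, 6 had all amylin arrays below all vehicle arrays (3.81% of all genes did), and the median difference was -0.30. Relative to wild type, the list averaged 0.97, 1.44 and 1.31 on the vehicle arrays and 0.87, 1.05 and 0.84 on the amylin arrays, so vehicle replicate 1 lay below amylin replicate 2. In vehicle mice 22 of the 33 genes were above wild type at an adjusted p under 0.05, and in amylin mice 15. Over all genes, 8.58% and 5.21% passed in either direction. The median was -0.43 without vehicle replicate 1 and -0.18 without vehicle replicate 2. On the 18 homeostatic microglia genes the list means were 0.58, 0.99 and 0.82 against 0.60, 0.73 and 0.51, with 15 lower means and a median of -0.22 (-0.34 without vehicle replicate 1 and -0.10 without vehicle replicate 2). Among these genes the groups were separate for Olfml3, a secreted matrix protein of resident microglia (9.11, 9.58 and 9.06 against 8.60, 9.05 and 8.67), and for the nucleotide receptor P2ry6, with little room between them in each case. Markers of the resting and of the plaque-associated state were thus both lower on average.

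Complement genes followed the same pattern of arrays. C4b, which carries the classical pathway forward, read 8.45, 8.92 and 8.81 with vehicle and 8.44, 8.21 and 8.39 with amylin, with vehicle replicate 1 just above the amylin arrays. Fcgr4, an activating receptor for antibodies, read 4.12, 4.45 and 4.80 against 4.01, 4.10 and 3.96, with wild type at 3.81 to 3.89. Its mean signal was low, at percentile 17.1 of all genes. The differences were -0.38 ± 0.13 and -0.44 ± 0.14 log2 (SE; limma adjusted p = 0.675 and 0.664). Of 19 complement and Fc receptor genes, 16 had a lower mean and 3 had all amylin arrays below (3.81% of all genes did). Their median was -0.20, or -0.31 without vehicle replicate 1 and -0.10 without vehicle replicate 2. All 12 measured antigen presentation genes had a lower mean, but none had separate groups and their median was only -0.06.

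Of 25 measured cytokine and chemokine genes, 8 had a higher and 17 a lower mean, 2 had all amylin arrays below (3.81% of all genes did) and 0 had all above, with a median of -0.06. The chemokines that follow are not examples of that list: they were named after their values were seen, for passing with 1 array left out or for a difference over 1 log2. Cxcl5, a neutrophil attractant, read 4.53, 5.63 and 5.53 with vehicle and 4.43, 4.43 and 4.45 with amylin. Ccl6, made by macrophages, read 7.05, 8.04 and 7.97 against 7.04, 7.27 and 6.86, and Ccl9 read 5.89, 6.42 and 6.46 against 5.88 on each amylin array. In all 3 genes vehicle replicate 1 was close to the amylin arrays. None passed with all arrays (limma adjusted p = 0.662, 0.687 and 0.675), and each passed without vehicle replicate 1 (0.00109, 0.0452 and 0.0247). Cxcl13, which attracts B cells, read 4.48, 5.90 and 4.15 against 3.63, 4.02 and 3.74, and its difference of -1.05 became -0.52 without vehicle replicate 2. The 16 measured markers of blood leukocytes had a median of -0.04, with 10 lower means and 1 gene separate downward (3.81% of all genes were).

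**Figure D3:**
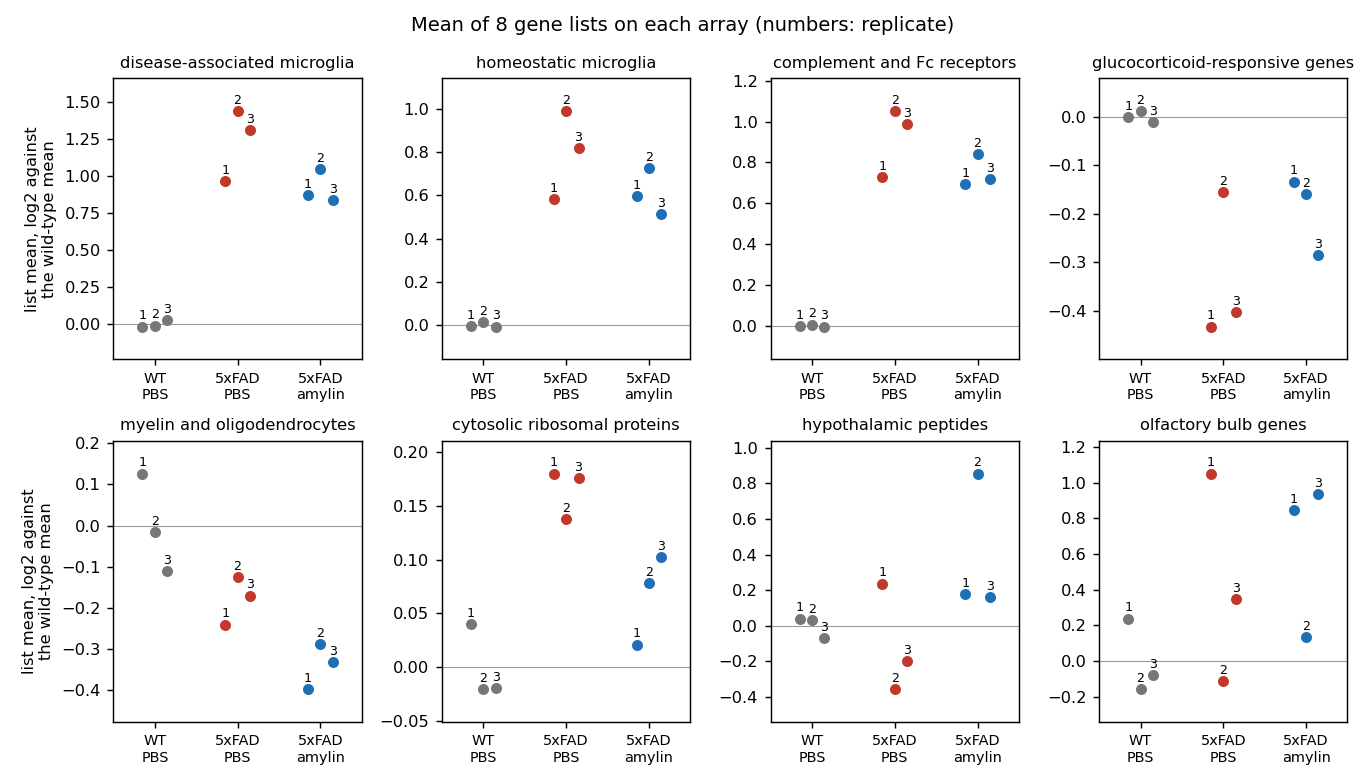
Points give the mean of 8 gene lists on each array as a log2 difference from the wild-type mean, with the replicate number above each point. The disease-associated microglia list is highest on vehicle replicate 2 (1.44), the array on which the olfactory bulb list is lowest among the 5xFAD arrays (-0.11), and the hypothalamic list stands out on amylin replicate 2 (0.86).

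Mature oligodendrocyte genes were the second group with lower means. Opalin, a membrane glycoprotein of myelin-forming cells, read 7.52, 7.73 and 7.40 with vehicle and 6.54, 6.76 and 7.02 with amylin, while wild type ranged from 7.40 to 7.54. All amylin arrays lay below both other groups, replicate 1 most. The difference was -0.77 ± 0.12 log2 (SE; 95% interval -1.04 to -0.50; limma adjusted p = 0.269), and against wild type Opalin was lower in amylin mice (-0.69, limma adjusted p = 0.0112) and not in vehicle mice (0.08, limma adjusted p = 0.802). Enpp6, a choline-lipid phosphodiesterase of newly formed oligodendrocytes, had the same shape, with 6.58, 6.88 and 6.59 against 5.79, 6.16 and 6.57, and amylin replicate 3 only just below the vehicle range.

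Genes of the myelin sheath itself had smaller differences. Mog, a glycoprotein of the outer myelin surface, read 8.75, 9.01 and 8.88 with vehicle and 8.39, 8.58 and 8.53 with amylin. Mag, which holds the innermost myelin layer to the axon, read 9.43, 9.54 and 9.31 against 8.76, 9.26 and 9.24. Both were separate between the groups, by -0.38 ± 0.10 and -0.34 ± 0.13 log2 (SE; limma adjusted p = 0.582 and 0.696). Aspa, the enzyme that splits N-acetylaspartate to supply acetate for myelin lipids, was tight with vehicle (7.85, 7.87 and 7.87) and lower with amylin (7.53, 7.51 and 7.77). Mbp, which compacts the myelin membrane, read 10.61, 10.70 and 10.69 against 10.53, 10.61 and 10.61, a difference of -0.08 with a 95% interval of -0.21 to 0.04.

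Of 22 measured myelin and oligodendrocyte genes, 17 had a lower mean, 7 had separate groups in that direction (3.81% of all genes did) and 0 in the other (5.49% did), and the median was -0.16. The list means relative to wild type were -0.24, -0.12 and -0.17 with vehicle and -0.40, -0.29 and -0.33 with amylin, so the arrays were separate at the level of the list, although wild-type arrays alone spanned 0.13 to -0.11. The median was -0.08 without vehicle replicate 2 and -0.09 without amylin replicate 1. Of 12 genes of oligodendrocyte precursors, 9 had a lower mean and 1, Enpp6, had separate groups, with a median of -0.05.

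**Figure D4:**
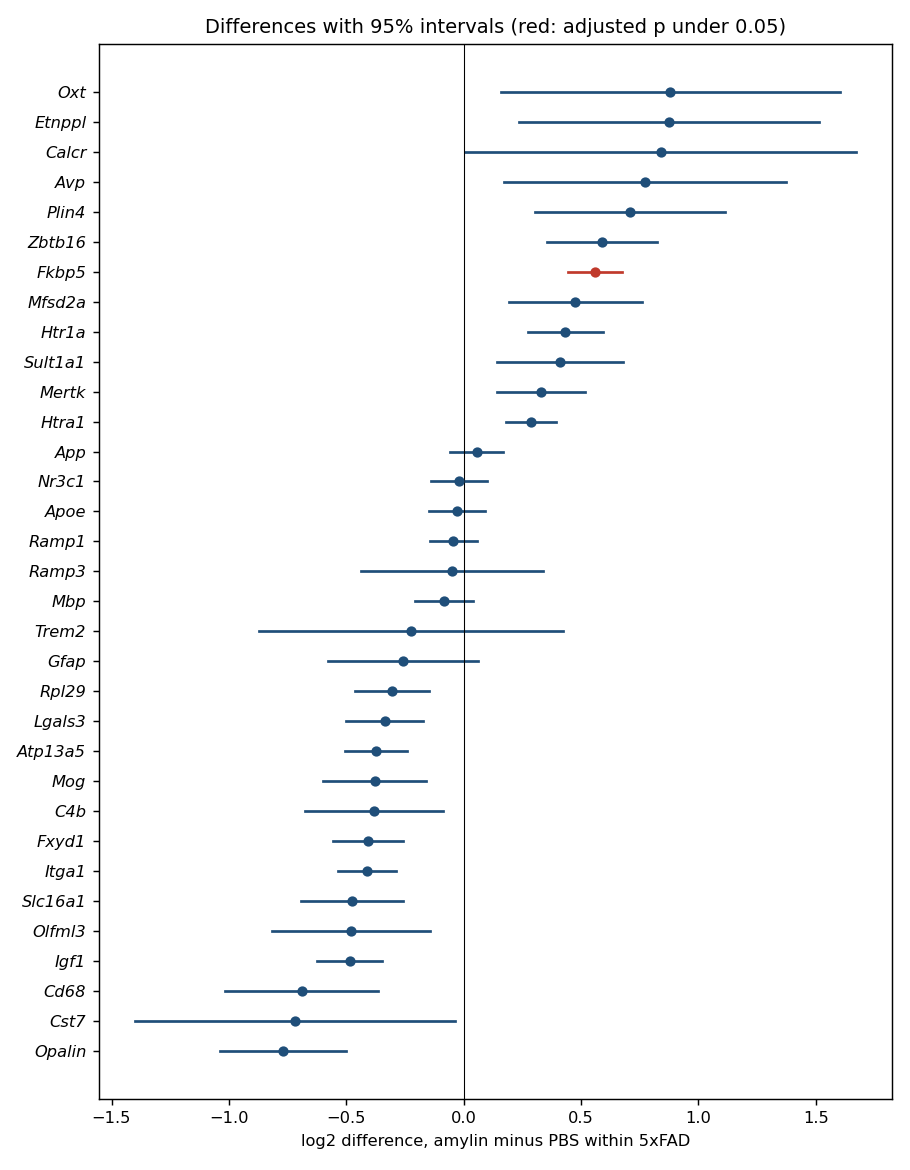
Points give the log2 difference between amylin and PBS within 5xFAD for 33 genes and lines its 95% interval from the limma fit, sorted by difference. The red line is Fkbp5 (0.44 to 0.68); the intervals of App, Nr3c1, Apoe and Ramp1 are narrow and include 0, while those of Calcr, Oxt, Trem2 and Cst7 are wide.

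Astrocyte genes differed in both directions, and none passed. Slc38a3, which exports glutamine for neurons, read 9.20, 9.14 and 9.10 with vehicle, 8.75, 8.85 and 8.92 with amylin and 8.61 to 8.70 in wild type. Fxyd1, a small regulator of the sodium pump, read 8.94, 9.07 and 8.83 against 8.50, 8.56 and 8.57, with wild type at 8.36 to 8.48. In both, the amylin arrays lay between wild type and vehicle without overlap, and the differences were -0.31 ± 0.06 and -0.41 ± 0.07 log2 (SE; limma adjusted p = 0.355 and 0.269). The water channel Aqp4 (9.52, 10.04 and 9.76 against 9.42, 9.41 and 9.51) and the potassium channel Kcnj10 (8.86, 9.01 and 9.05 against 8.32, 8.81 and 8.74), both of the astrocyte end-foot, had lower amylin arrays as well.

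Other astrocyte genes were higher. The gap junction gene Gjb6 read 7.31, 7.55 and 7.45 with vehicle and 7.67, 7.86 and 7.61 with amylin. Etnppl, an astrocyte enzyme that breaks down phosphoethanolamine, read 7.09, 6.97 and 6.28 against 8.30, 7.33 and 7.33, and amylin replicate 1 was far above the rest. Htra1, a secreted serine protease of astrocytes that also cuts matrix and amyloid proteins, had little spread, with 9.06, 9.05 and 9.10 against 9.37, 9.36 and 9.33; its difference was 0.29 ± 0.05 log2 (SE; limma adjusted p = 0.269). Gfap, the filament of reactive astrocytes, read 10.45, 11.07 and 10.80 against 10.45, 10.61 and 10.49, so vehicle replicate 1 was level with the amylin arrays. Of 17 homeostatic astrocyte genes, 3 had separate groups upward (5.49% of all genes did) and 4 downward (3.81% did), with a median of -0.00065. Of 22 reactive astrocyte genes 18 had a lower mean and 2 had separate groups, both downward, with a median of -0.09.

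At the vessel wall, Itga1, the collagen-binding integrin chain, read 6.14, 6.09 and 6.11 with vehicle, 5.73, 5.73 and 5.65 with amylin and 5.60 to 5.76 in wild type. Atp13a5, a transporter-like ATPase used as a marker of brain pericytes, read 6.79, 6.68 and 6.72 against 6.43, 6.37 and 6.27, with wild type at 6.30 to 6.41. In both genes the vehicle arrays stood alone and the amylin arrays were level with wild type, with differences of -0.41 ± 0.06 and -0.37 ± 0.06 log2 (SE; limma adjusted p = 0.209 and 0.269). Slc16a1, the lactate transporter of endothelium and oligodendrocytes, read 7.80, 8.15 and 8.05 against 7.38, 7.52 and 7.68. Mfsd2a, the lysophosphatidylcholine transporter that brings omega-3 lipids across the blood-brain barrier, lay the other way, with 8.11, 8.11 and 7.92 against 8.79, 8.55 and 8.23. Neither passed, at -0.47 ± 0.10 and 0.48 ± 0.13 log2 (SE; limma adjusted p = 0.495 and 0.63). As lists, 19 endothelial genes had a median of -0.02, with groups separate upward for 1 gene and downward for 1. The 14 pericyte and smooth muscle genes had a median of -0.03, with groups separate downward for 1. Over all genes, 5.49% were separate upward and 3.81% downward.

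The receptor system through which amylin acts was measured by 9 genes. Ramp1, a subunit that turns the calcitonin receptor into an amylin receptor, read 7.37, 7.36 and 7.36 with vehicle and 7.30, 7.30 and 7.36 with amylin. Ramp2 read 6.98, 6.72 and 6.92 against 6.80, 6.98 and 6.73, and Ramp3 read 6.17, 6.46 and 6.10 against 5.92, 6.62 and 6.05. All 3 overlapped, with 95% intervals of -0.15 to 0.05, -0.23 to 0.16 and -0.44 to 0.34. Ramp3, which is also a thalamic marker, was below its wild-type range of 7.02 to 7.30 in both 5xFAD groups. Calcrl, the partner of the RAMPs in receptors for the related peptides CGRP and adrenomedullin, read 6.50, 6.34 and 6.35 against 6.26, 6.23 and 6.26, a difference of -0.15 ± 0.05 log2 (SE; limma adjusted p = 0.687). The mouse amylin gene Iapp was at 3.30 to 3.49 on the 6 arrays, near the bottom of the scale; the injected human peptide is not RNA and was not measured.

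Calcr, the calcitonin receptor itself, varied more between arrays than the RAMPs. It read 5.84, 4.19 and 4.94 with vehicle, 5.94, 6.29 and 5.25 with amylin, and 4.40 to 4.66 in wild type. Vehicle replicate 1 lay among the amylin arrays, and the difference of 0.84 ± 0.37 log2 (SE) did not pass (limma adjusted p = 0.721; 0.44 to 1.26 with 1 array left out). The order of the 6 arrays resembled that of hypothalamic genes. Oxt (oxytocin) read 8.22, 6.75 and 6.90 against 8.12, 8.41 and 7.99, and Avp (vasopressin) 7.27, 6.54 and 7.04 against 7.34, 8.41 and 7.43. Pmch, the melanin-concentrating hormone of the lateral hypothalamus, read 4.35 to 4.69 with vehicle but 4.43, 9.35 and 4.39 with amylin, so its difference of 1.54 came from amylin replicate 2 and was -0.11 without it; wild-type arrays read 6.16 to 7.76.

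All 13 measured hypothalamic peptide genes had a higher mean under amylin, 2 of them with separate groups (5.49% of all genes were separate upward). Their median difference of 0.46 became 0.14 without amylin replicate 2. The list means relative to wild type were 0.24, -0.36 and -0.20 with vehicle and 0.18, 0.86 and 0.16 with amylin. Gabrq, a GABA receptor subunit, Gpr101, an orphan receptor, and AW551984, all named after their values were seen, showed the same arrays at the extremes: each was lowest on vehicle replicate 2 (4.64, 5.11 and 5.26) and highest on amylin replicate 2 (7.07, 7.26 and 8.13). Olfactory bulb genes were uneven in another way, with list means of 1.05, -0.11 and 0.35 with vehicle and 0.85, 0.14 and 0.93 with amylin; 13 of 14 had a higher mean, and the median of 0.18 became -0.03 without vehicle replicate 2. Vehicle replicate 2 was thus the lowest of the 6 for both regional lists and the highest for the microglial lists, and the part of this in the results was not tested. Gnrh1, the peptide that starts the reproductive hormone axis, read 5.31, 5.17 and 5.15 against 5.72, 5.57 and 5.45, with no array far from its group (0.37 ± 0.08 log2, SE; limma adjusted p = 0.495).

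The groups overlapped for endogenous App. It read 11.69, 11.78 and 11.80 with vehicle and 11.80, 11.86 and 11.77 with amylin, a difference of 0.06 with a 95% interval of -0.06 to 0.17. Thy1, whose promoter drives the transgenes, read 11.42, 11.61 and 11.45 against 11.27, 11.43 and 11.34 (-0.15 ± 0.07 log2, SE; limma adjusted p = 0.732). Since the array holds mouse probes with no separate set for the human transgenes, transgene expression under amylin was not measured. Of 16 genes that process App, 8 were higher and 8 lower with a median of 0.01 and no separate groups. Of 20 genes that degrade or clear amyloid, 1 had separate groups, Htra1, upward (5.49% of all genes did).

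Lists of neuronal genes had medians on both sides of 0. Htr1a, the inhibitory serotonin autoreceptor and heteroreceptor, read 6.09, 5.89 and 5.91 with vehicle, 6.36, 6.47 and 6.36 with amylin and 6.45 to 6.61 in wild type. Its groups were separate, with a difference of 0.43 ± 0.07 log2 (SE; limma adjusted p = 0.269). Of the 18 measured serotonin and monoamine receptor genes, 12 had a higher mean, and the median was 0.05. Their groups were separate upward for 1 (5.49% of all genes) and downward for 2 (3.81% of all genes). Grin2b, an NMDA receptor subunit, read 10.07, 9.93 and 10.11 against 10.30, 10.30 and 10.29, and the vesicle protein gene Syn1 10.63, 10.65 and 10.58 against 10.76, 10.79 and 10.75. Of 26 genes of excitatory synapses and vesicles, 18 had a higher and 8 a lower mean, with a median of 0.04. All amylin arrays lay above for 6, against 5.49% of all genes. These genes were bright, at a median signal percentile of 97.3. The 1994 genes of highest mean signal had a similar median of 0.03, and 32.0% of them had a lower mean. In vehicle mice 10 of the 26 were below wild type at an adjusted p under 0.05, and in amylin mice 2. The shares of all genes that passed in either direction were 8.58% and 5.21%.

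Inhibitory neurons gave a less even picture. Of 19 genes, 16 had a higher mean and the median was 0.15 (0.06 without vehicle replicate 2 and 0.24 without vehicle replicate 1). At an unadjusted limma p under 0.05, 2 genes were lower and 0 higher, against 3.18% and 3.72% of all genes. Groups were separate downward for 1 gene and upward for 0, against 3.81% and 5.49% of all genes. Cck, the cholecystokinin gene, read 10.22, 10.64 and 10.33 with vehicle against 10.01, 10.06 and 10.18 with amylin. Pvalb, the calcium buffer of fast-spiking interneurons, read 8.55, 9.15 and 8.88 against 8.24, 8.51 and 8.63, with amylin replicate 3 inside the vehicle range. None of 24 activity-dependent immediate early genes and none of 18 cortical layer genes had separate groups. The shares of all genes were 5.49% upward and 3.81% downward. Medians of these lists were -0.04 and 0.04, and 16 of the first list had a lower mean and 12 of the second a higher one. Of 13 striatal genes 9 had a lower mean and of 15 thalamic genes 8.

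Most genes of cytosolic ribosomes and of the respiratory chain had slightly lower means. Rpl29, a protein of the large ribosomal subunit, read 10.01, 10.00 and 10.02 with vehicle, 9.79, 9.79 and 9.54 with amylin and 9.68 to 9.79 in wild type. Rps18, of the small subunit, read 10.33, 10.29 and 10.38 against 10.14, 10.14 and 10.19, and Rpl23a 10.99, 10.98 and 11.01 against 10.69, 10.87 and 10.84. The vehicle arrays agreed closely and the groups were separate, with differences of -0.30 ± 0.07, -0.17 ± 0.05 and -0.19 ± 0.05 log2 (SE; limma adjusted p of 0.559 to 0.634). Ribosomal genes have many near-identical processed copies, and Rps18 and Rpl23a alone are named by 7 and 13 probe sets, so these values are uncertain as to gene.

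Of 53 cytosolic ribosomal protein genes, 47 had a lower mean and 19 had all amylin arrays below all vehicle arrays, where 3.81% of all genes did and 3.51% of the 1994 genes of highest mean signal. The median was -0.10, and between -0.11 and -0.07 with any 1 array left out, while those 1994 genes had a median of 0.03. The list means relative to wild type were 0.18, 0.14 and 0.18 with vehicle and 0.02, 0.08 and 0.10 with amylin, without overlap, and wild-type arrays ranged from -0.02 to 0.04. In vehicle mice 14 members were above wild type at an adjusted p under 0.05 and in amylin mice 0. Over all genes, 8.58% and 5.21% passed in either direction. Of 73 respiratory chain genes 47 had a lower mean, with a median of -0.05. Their groups were separate downward for 12 (3.81% of all genes) and upward for 5 (5.49% of all genes). Ndufa3, a subunit of complex I, read 9.95, 9.91 and 9.85 against 9.63, 9.67 and 9.75, and Uqcr11, a subunit of complex III, 8.61, 8.39 and 8.56 against 8.10, 8.28 and 8.17. Of 39 proteasome subunits, 23 had a higher mean, with a median of 0.03. Their groups were separate upward for 5 (5.49% of all genes) and downward for 1 (3.81% of all genes).

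**Figure D5:**
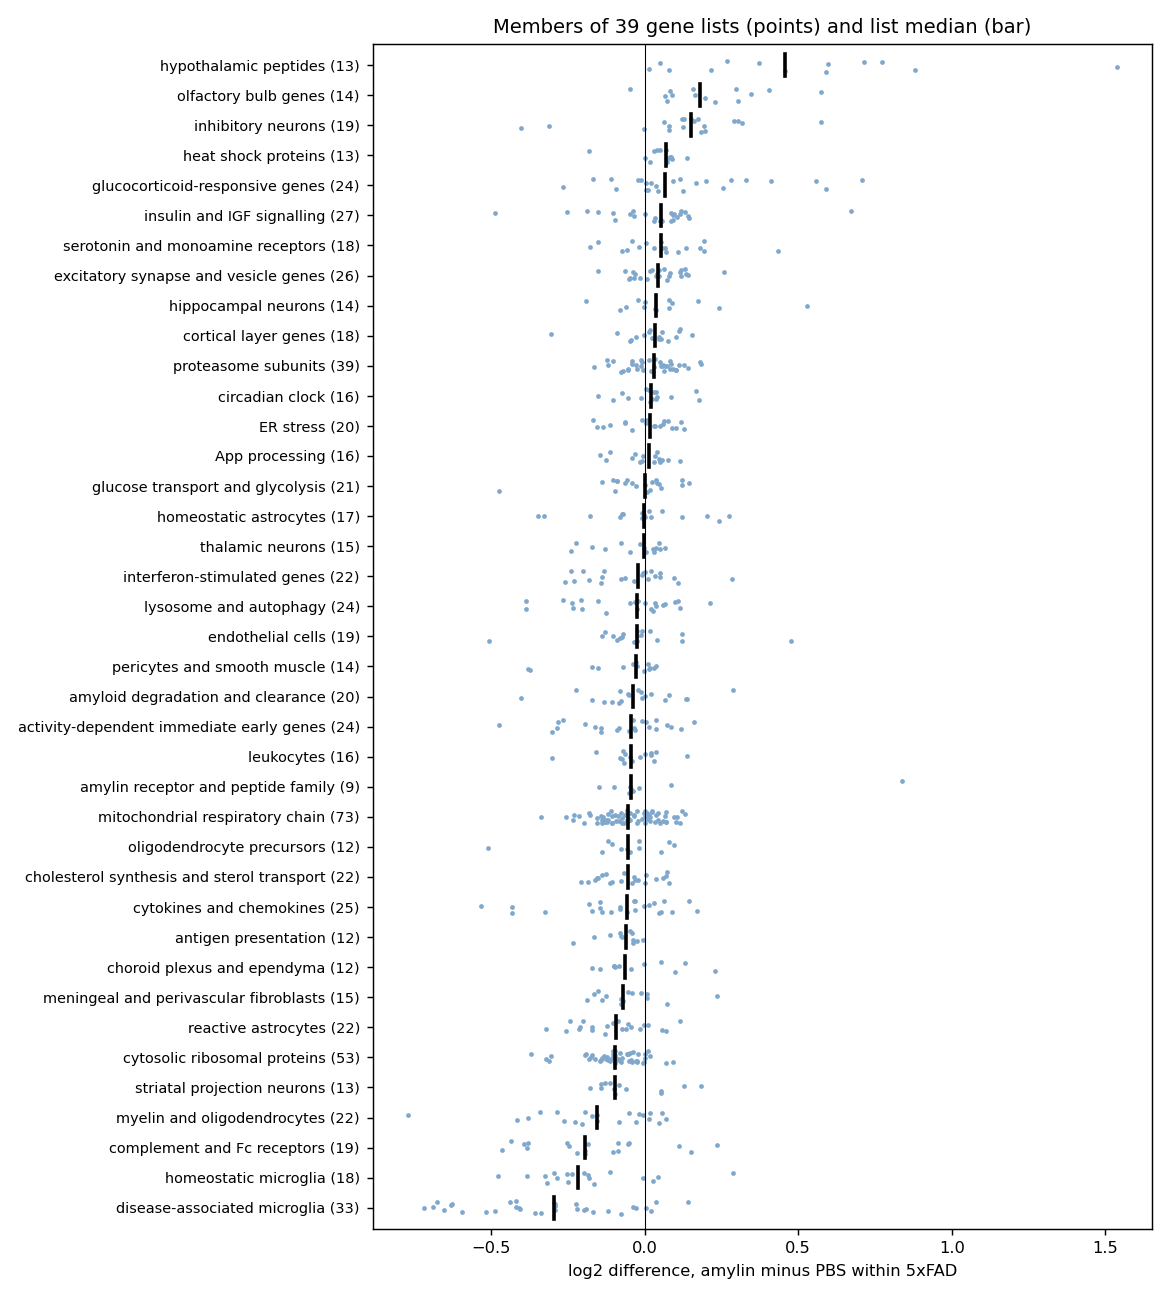
Each row is 1 of 39 gene lists with the number of measured members in brackets, points are the log2 differences of its members between amylin and PBS within 5xFAD, and the bar is the list median. Medians run from -0.30 for disease-associated microglia to 0.46 for hypothalamic peptides, and those of most lists lie close to 0.

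Insulin and growth factor signalling gave 17 higher and 10 lower means among 27 genes, with 6 separate groups upward (5.49% of all genes) and 2 downward (3.81%). Igf1, given above, was the lowest and Irs4, an insulin receptor substrate expressed in the hypothalamus, the highest, with 5.43, 4.78 and 5.07 against 5.71, 6.20 and 5.38 and the same extreme arrays as Calcr. Genes of lysosomes and autophagy (24, median -0.02), cholesterol synthesis (22, median -0.05), glycolysis and glucose transport (21, median 0.0015), ER stress (20, median 0.02), the circadian clock (16, median 0.02) and interferon responses (22, median -0.02) were centred near 0. Of the 24 lysosome and autophagy genes, 4 were lower at an unadjusted limma p under 0.05 (3.18% of all genes) and 1 higher (3.72%). Their groups were separate downward for 2 and upward for 2. In 12 of 13 heat shock genes the mean was higher, without separate groups, and the median was 0.07. The cold-inducible RNA-binding genes Rbm3 and Cirbp were highest on amylin replicate 1, at 11.34 and 9.20, where the other 5 5xFAD arrays read 10.08 to 10.60 and 8.30 to 8.55; Cirbp was named after its values were seen.

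Among further genes with a higher mean and a small p, those given here were separate between the groups. Rp9, a gene linked to retinitis pigmentosa, read 7.88, 7.91 and 8.05 with vehicle and 8.26, 8.34 and 8.41 with amylin, above every wild-type array (8.08 at most). Rhpn2 read 6.30, 6.15 and 6.25 against 6.54, 6.55 and 6.54, and the adhesion gene Kirrel2 6.32, 6.18 and 6.17 against 6.58, 6.66 and 6.48; wild-type arrays read 6.61 to 6.67 and 6.59 to 6.63. Ifi207, an interferon-inducible gene of the PYHIN family, read 4.29, 4.19 and 4.01 against 5.12, 4.91 and 4.61 and was above wild type in amylin mice (1.09, limma adjusted p = 0.00144). Their differences within 5xFAD had limma adjusted p of 0.269 to 0.306.

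The 7 differences over 1 log2 were in genes named after their values were seen, and none passed. Cpa6, a carboxypeptidase, read 3.38, 3.89 and 3.49 with vehicle and 5.15, 4.15 and 6.16 with amylin, the largest difference at 1.56 ± 0.39 log2 (SE; limma adjusted p = 0.574) in a gene at the bottom of the scale in both other groups. Gm5148, a predicted gene, read 4.42, 5.22 and 4.48 against 5.84, 5.82 and 5.47, and passed without vehicle replicate 2 (1.26, limma adjusted p = 0.0395). Pttg1, which holds sister chromatids together, read 7.06, 7.50 and 6.69 against 4.99, 6.69 and 6.54, where amylin replicate 1 made most of the difference of -1.01. The others were Pmch, AW551984 and Gabrq, higher on amylin replicate 2, and Cxcl13, high on vehicle replicate 2. Snord33, a small nucleolar RNA, and Dhrs3, a retinal reductase, did not pass with all arrays but did without vehicle replicate 2 (-1.35, limma adjusted p = 0.000183) and without vehicle replicate 1 (-0.46, limma adjusted p = 0.0497); on vehicle replicate 2 Snord33 read 9.25, within the amylin range of 9.21 to 9.34, and 10.60 to 10.66 on the other vehicle arrays.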

How the data were processed

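Biotin-labelled total RNA was hybridised to 9 arrays, and the deposited log2 values cover 35556 probe sets. The authors made them with RMA in the package oligo, per the submitters' processing notes, which give no versions; RMA subtracts background, equalises the distribution of the arrays and combines the probes of a set, so a shift common to most genes cannot be seen. The genome build behind the annotation was not given in the sources used here. Probe sets were named through GEO's platform annotation, which can be old: 21789 name 1 symbol, 1621 several and 12146 none. Of the first, 21698 matched RefSeq (GRCm38.p6) by Entrez ID, which changed 0 symbols. For the 999 genes with several probe sets, the brightest on average over 9 arrays was kept, which gave 19938 genes, with no filter on low signal.

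One limma fit (limma version 3.58.1 in R 4.3.3) of all 9 arrays gave a mean per group, with 6 residual and 3.53 prior degrees of freedom, two-sided tests and Benjamini-Hochberg adjustment over all genes at 0.05. It was tested on simulated data, in which values varied independently between genes and arrays. Shifts shared by many genes of an array were not simulated. Intervals are 95% limma intervals, not adjusted for the number of genes. The members and the 41 gene lists (863 genes, 808 measured) were chosen with earlier results of these data known, so lists are described by counts and medians and not tested. The rule for named genes took the 15 smallest p per direction, the 10 largest differences per direction among genes with separate groups and a mean in the upper 50%, without predicted and receptor-cluster symbols, the 4 members of each list with the smallest p, and genes fixed by name; the text names part of these. Alternatives were other samples in the fit, priors, scalings, weighted arrays, a replicate block, other probe sets and features, a threshold of 0.1, the lowest 50% of genes left out, and each array left out.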

Additional observations from a re-analysis of the deposited data

How the results depend on the processing

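With limma, the count of changed genes was 1 under the other alternatives run and 0 with only the 6 5xFAD arrays (938 genes at an unadjusted p under 0.05), with all probe sets tested (2186) and with the replicate block (1411). With 1 array left out it ran from 0 to 7: it was 0 without any wild-type or amylin array or vehicle replicate 3 (1135 to 1791 genes at an unadjusted p under 0.05), 3 without vehicle replicate 2 and 7 without vehicle replicate 1. Same-numbered amylin and vehicle arrays deviated from their group means with correlations of 0.10, 0.13 and 0.12 across genes, not all over 0.1, so the numbers were not taken as pairs; with the replicate block the adjusted p of Fkbp5 was 0.179, and with all probe sets 0.137.

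With array weights Trem2 was at 0.0904 and Ramp3 at 0.178. With 1 array left out, the difference ran from -0.0514 to 0.37 for Sgk1, -0.0531 to 0.0056 for Nr3c1, -0.51 to 0.0800 for Trem2, -0.0631 to 0.0142 for Apoe, -0.12 to 0.0187 for Ramp2, -0.26 to 0.0900 for Ramp3, -0.0619 to 0.0274 for Iapp and -0.11 to 2.37 for Pmch; the cause was not tested. The number of arrays, 3 per group, limits what could be called.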
